A study of Rattus norvegicus with 9 samples.

Results

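The genes of major histocompatibility complex class II were followed in rat bone after ovariectomy and after treatment with astragaloside IV (AS-IV). They are the 10 genes RT1-Ba, RT1-Bb, RT1-Da, RT1-Db1, RT1-DMa, RT1-DMb, RT1-DOa, RT1-DOb, Cd74 and Ciita, taken by their symbols from a table of 23026 genes. All 10 passed the filter on low counts, which left 16874 genes for testing.

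Class II molecules are pairs of an alpha and a beta chain that carry peptides from engulfed proteins to the surface of antigen-presenting cells, where CD4 T cells read them. In the rat, RT1-B and RT1-D are the pairs that present peptide, Cd74 encodes the invariant chain that guards the groove of a new pair, RT1-DM exchanges the last fragment of that chain for a peptide, and RT1-DO restrains RT1-DM. Ciita is the coactivator that turns the whole set on. B cells, dendritic cells and macrophages, all present in bone marrow, are the cells best known for this programme.

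The samples were bone of female Sprague-Dawley rats, 8 weeks old at purchase, with 3 libraries in each of 3 groups. Sham rats lost only fat beside the ovary and were given the vehicle, sodium carboxymethyl cellulose (CMC-Na), by gavage. OVX rats lost both ovaries, as a model of postmenopausal osteoporosis (PMOP), and were given vehicle at 1%. OVX-AS-IV-High rats lost both ovaries and were given AS-IV, a saponin of Astragalus, at 80 mg/kg, and are also called the treated rats below. Gavage began 6 weeks after surgery and lasted 8 weeks in every group. The labels give the vehicle of Sham replicates 1, 2 and 3 as 1%, 2% and 3% CMC-Na, whereas the study's methods give 1% for the group, and any effect of this cannot be told apart from the difference between rats. The 3 libraries of a group are biological replicates, the tissue is bulk bone with its marrow, and in such tissue fewer cells of a type and less RNA per cell cannot be told apart.

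Class II promoters are known for a shared upstream module in which an X box, bound by the RFX complex, stands ahead of a Y box, bound by NF-Y, and on which Ciita is recruited. The promoters of 7 RT1 genes are printed because this module is the feature that the genes share beyond their function. The sequences come from RefSeq on build GRCr8, whereas the deposited data were made on mRatBN7.2, so no coordinate below was joined to the data. RT1-DMb and Ciita had no entry in the promoter table, and Cd74 had one. Each run of 58 bases reads 5′ to 3′ on the strand of the gene. Capitals mark the Y box core ATTGG and, where it was present 25 to 40 bases ahead counted from start to start, the X box core AGCAAC.
RT1-Da, chr20:4515321-4515378, plus strand: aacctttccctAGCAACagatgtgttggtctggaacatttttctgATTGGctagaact
RT1-Db1, chr20:4560230-4560287, minus strand: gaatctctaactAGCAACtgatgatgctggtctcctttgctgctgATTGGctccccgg
RT1-DOa, chr20:4758518-4758575, minus strand: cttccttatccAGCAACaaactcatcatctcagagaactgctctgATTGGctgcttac
RT1-DOb, chr20:4627594-4627651, minus strand: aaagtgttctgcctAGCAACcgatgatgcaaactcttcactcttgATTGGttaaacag
RT1-Ba, chr20:4576969-4577026, plus strand: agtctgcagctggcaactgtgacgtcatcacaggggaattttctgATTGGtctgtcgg
RT1-Bb, chr20:4604167-4604224, minus strand: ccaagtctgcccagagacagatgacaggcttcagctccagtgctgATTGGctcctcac
RT1-DMa, chr20:4712387-4712444, minus strand: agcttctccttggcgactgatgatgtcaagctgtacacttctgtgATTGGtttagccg

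The pair of cores at this spacing was found in 4 of the 8 members with a promoter, RT1-Da, RT1-Db1, RT1-DOa and RT1-DOb, with start-to-start distances of 34, 33, 34 and 31 bases. Of all 33469 RefSeq rat promoters of the same length, 81 (0.242%) held it. With 1 mismatch allowed in the X box core, RT1-Ba joined them to make 5 members, and 3.26% of all promoters then matched. The single cores are common: AGCAAC stood in 14.7% and ATTGG in 37.5% of all promoters, and the longer TGATTGG in 7.06%. At any place in the promoter, 5, 8 and 7 of the 8 members held them, in the same order. Both strands were searched. RT1-Bb and RT1-DMa had the Y box core without an X box core of these letters at this spacing, which says only that the letters are not in that window.

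**Figure D1:**
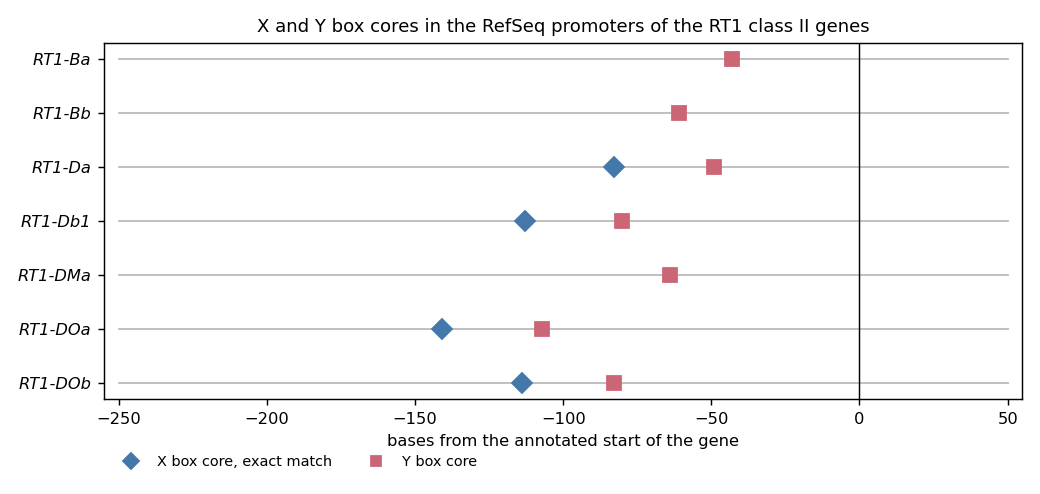
Positions of the X box core AGCAAC (diamonds) and the Y box core ATTGG (squares) in the RefSeq promoters of 7 RT1 class II genes, in bases from the annotated start of the gene (x axis). The X core is drawn only where it stands 25 to 40 bases ahead of the Y core. RT1-Da, RT1-Db1, RT1-DOa and RT1-DOb carry both, the X core from 141 to 83 bases and the Y core from 107 to 49 bases before the start. RT1-Ba, RT1-Bb and RT1-DMa carry the Y core without an X core at this spacing.

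Per transcript length, Cd74 was the leading message of the set. Its mean over the 9 libraries was 334 ± 83.2 FPKM (SD), followed by RT1-Da at 92.2 ± 29.7, RT1-DMb at 55.6 ± 5.55, RT1-DMa at 38.2 ± 5.79, RT1-Db1 at 31.7 ± 6.67, RT1-Bb at 26.5 ± 18.1 and RT1-Ba at 14.3 ± 8.23 FPKM. RT1-DOb at 5.46 ± 2.02, RT1-DOa at 4.45 ± 1.8 and Ciita at 2.34 ± 0.45 FPKM closed the order. The ranges of Cd74 and RT1-Da did not meet, whereas those of every other pair of neighbours in the order overlapped. RT1-Da was nevertheless above RT1-DMb, RT1-DMb above RT1-DMa and RT1-DOa above Ciita in 9 of 9 libraries, while RT1-Db1 was above RT1-Bb in 5 of 9. Class II genes are known to be polymorphic and the stock is outbred, so alleles that differ from the reference genome could change the counts of single genes such as RT1-Ba, RT1-Bb and RT1-Db2 and their ratios; this was not tested. Cd74 alone made up 51.9% to 57.8% of the summed FPKM of the 10 genes, and the 10 genes together took 0.0636% to 0.12% of a library's counts.

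**Figure D2:**
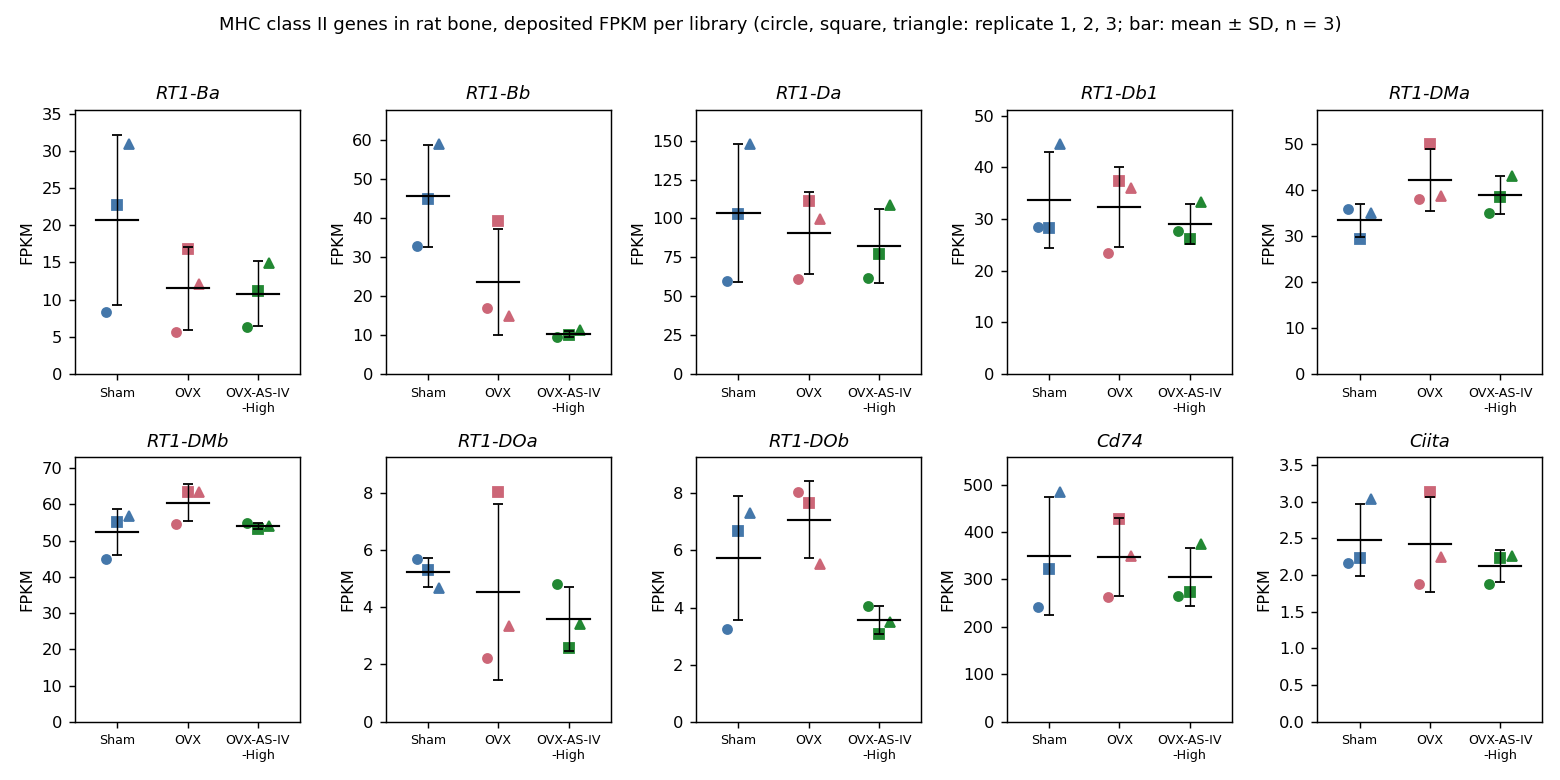
Deposited FPKM (y axis, linear from 0, own scale in each panel) of the 10 class II genes in Sham, OVX and OVX-AS-IV-High; circle, square and triangle are replicates 1, 2 and 3, and the bar is the mean ± SD of 3 libraries. RT1-Bb lies between 9.58 and 11.2 FPKM in all OVX-AS-IV-High libraries, below every other library, and most other genes overlap between groups.

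Total counts lay between 34874880 and 37298250 per library, so depth differed little. Skeletal muscle markers differed far more: their summed level was 1677 to 9628 CPM in Sham libraries, 1676 to 3377 CPM in OVX libraries and 564.9 to 4704 CPM in treated libraries. Of the 9 markers, 0 had an unadjusted p under 0.05 in any comparison. Against Sham, all 9 had a log2 fold change below 0 in OVX (median -1.1) and in OVX-AS-IV-High (median -1.19). Of all genes, 50.8% and 51.6% were below 0 there. In OVX-AS-IV-High vs. OVX, 7 of the 9 were above 0, with a median of 0.06. The bone genes Col1a1 and Bglap were abundant in every library, from 2111 and 211 CPM upwards. In edgeR's quasi-likelihood test with Benjamini-Hochberg adjustment over all genes tested, 0 genes had an adjusted p under 0.05 in any of the 3 comparisons, against 790 (OVX vs. Sham), 27 (OVX-AS-IV-High vs. OVX) and 951 (OVX-AS-IV-High vs. Sham) by DESeq2. The comparisons share libraries with each other, so they are not independent. Log2 fold changes (log2FC) below are those of edgeR with their standard errors (SE). DEGs below are genes past both an absolute log2FC of 1, the bound used in the results of the study, and an unadjusted p of 0.05. The methods of the study give a lower bound of 0.58, and the counts at that bound stand beside those at 1.

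OVX vs. Sham asks what the loss of the ovaries did to the class II message. Most of the set lay near the Sham level: Cd74 differed by a log2FC of -0.04 and Ciita by -0.07. The peptide-presenting chains of the B locus were the lowest relative to Sham, with log2FC values of -0.98 for RT1-Bb and -0.88 for RT1-Ba. The DM chains lay above Sham, with 0.31 for RT1-DMa and 0.18 for RT1-DMb. In all, 7 of the 10 log2FC values were below 0, as were 50.8% over all genes.

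Of the 10 genes, 1 (RT1-DMa) had an unadjusted p under 0.05 and a higher level, where 8.16% of all genes did, and 1 (RT1-Bb) had a lower level, where 8.28% did. None was a DEG in this comparison, against 3.11% of all genes. At the bound of 0.58, 1 (RT1-Bb) was past it, against 6.96% of all genes, and 0 had an adjusted p under 0.05 by edgeR or by DESeq2. These shares are near the background. The median log2FC of the 10 was -0.08, beside -0.01 over all genes tested.

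RT1-Bb encodes the beta chain of the RT1-B pair. It stood at 32.8, 45.0 and 58.9 FPKM in Sham libraries and at 16.9, 39.2 and 14.8 FPKM in OVX libraries. OVX replicates 1 and 3 were below every Sham library, and OVX replicate 2 lay inside the Sham range. The log2FC was -0.98 ± 0.346 (SE), with adjusted p = 0.218 in edgeR's test. It was -1.54 without OVX replicate 2 and lay between -1.19 and -0.74 without any other single library, and the unadjusted p lay above 0.05 without Sham replicate 3, OVX replicate 1 or OVX replicate 3.

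RT1-Ba, the alpha chain of the same pair, stood at 8.36, 22.7 and 30.9 FPKM in Sham libraries and at 5.64, 16.8 and 12.1 FPKM in OVX libraries. Sham replicate 1 was among the low libraries of all 9, and the groups overlapped. The log2FC was -0.88 ± 0.52 (SE). With the replicate number as a block, although no label pairs the rats, it was -0.81 ± 0.213 (SE). Its unadjusted p was then under 0.05, with adjusted p = 0.0983 in edgeR's test. The log2FC was -1.27 without Sham replicate 1, when its unadjusted p was also under 0.05. That library also carried the highest summed skeletal muscle level, 9628 CPM; the part of muscle in this was not tested, and leaving muscle genes out of the library totals changed the direction of no member.

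RT1-DMa and RT1-DMb encode the peptide exchanger. RT1-DMa stood at 35.8, 29.4 and 35.0 FPKM in Sham libraries and at 38.0, 50.0 and 38.6 FPKM in OVX libraries. Every OVX library was above every Sham library, as for 12.7% of all genes. The log2FC was 0.31 ± 0.127 (SE), with adjusted p = 0.271 in edgeR's test, and 0.19 without OVX replicate 2 and 0.25 without Sham replicate 2, when its unadjusted p was above 0.05. RT1-DMb had a log2FC of 0.18 ± 0.114 (SE) and overlapped between groups, with 45.0 to 56.7 FPKM in Sham and 54.7 to 63.5 FPKM in OVX.

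The other members overlapped and had an unadjusted p above 0.05. RT1-Da, the alpha chain of the RT1-D pair, had a log2FC of -0.22 ± 0.341 (SE), and RT1-Db1, its beta chain, one of -0.09 ± 0.223. RT1-DOa, the alpha chain of the RT1-DM inhibitor, spread from 2.23 to 8.03 FPKM within OVX alone, beside 4.68 to 5.67 FPKM in Sham, with a log2FC of -0.23 ± 0.426. RT1-DOb, its beta chain, had one of 0.27 ± 0.303. For Cd74 the SE was 0.266 and for Ciita 0.208, so 3 libraries a group leave room for modest differences in both.

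OVX-AS-IV-High vs. OVX asks what AS-IV did in rats without ovaries. All 10 log2FC values were below 0, as were those of 53.3% of all genes, and most were small. The larger ones were RT1-Bb at -1.16 and RT1-DOb at -0.96. The remaining 8 lay between -0.29 for RT1-DOa and -0.06 for RT1-Ba.

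Those 2 of the 10 genes had an unadjusted p under 0.05 and a lower level, where 2.03% of all genes did, and 1 (RT1-Bb) was a DEG, where 0.83% of all genes were. At the bound of 0.58 both were, against 2.19% of all genes. None had an adjusted p under 0.05 by edgeR or DESeq2, and the smallest adjusted p of any gene was 0.652 in edgeR's test. The median log2FC of the 10 was -0.14, beside -0.02 over all genes tested. OVX replicate 2 held the highest OVX value of 9 of the 10 genes in FPKM.

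RT1-Bb stood at 9.58, 10.1 and 11.2 FPKM in treated libraries, beside 16.9, 39.2 and 14.8 FPKM in OVX libraries. All 3 treated libraries were below all 3 OVX libraries, as for 6.36% of all genes. The coefficient of variation in CPM was 6.96% in treated libraries, against 55.9% in OVX and 29.5% in Sham. The log2FC was -1.16 ± 0.351 (SE), with adjusted p = 0.652 in edgeR's test. The exact permutation test on log2 CPM gave p = 0.1, the smallest that 3 against 3 allows. Without OVX replicate 2 the log2FC was -0.60, and RT1-Bb was then no DEG, although its unadjusted p stayed under 0.05.

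RT1-DOb stood at 4.07, 3.08 and 3.51 FPKM in treated libraries and at 8.05, 7.66 and 5.54 FPKM in OVX libraries. The groups did not overlap, as for 6.36% of all genes in the lower direction. These levels rest on 161 to 213 counts per treated library and on 286 to 410 per OVX library. The log2FC was -0.96 ± 0.307 (SE), with adjusted p = 0.652 in edgeR's test, and it lay between -1.10 and -0.85 when any one library was left out.

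The rest of the set overlapped between OVX and OVX-AS-IV-High. RT1-Ba, the partner chain of RT1-Bb, was at 6.28, 11.2 and 14.9 FPKM after AS-IV and had a log2FC of -0.06 ± 0.519 (SE). RT1-Da had a log2FC of -0.10 ± 0.341, RT1-Db1 one of -0.12 ± 0.223, Cd74 one of -0.15 ± 0.266 and Ciita one of -0.15 ± 0.208. RT1-DMa was at -0.08 ± 0.127 and RT1-DMb at -0.13 ± 0.114. Without OVX replicate 2, the log2FC of RT1-Ba, RT1-Da, RT1-DMa, RT1-DOa, Cd74 and Ciita lay between 0.01 and 0.39, above 0.

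**Figure D3:**
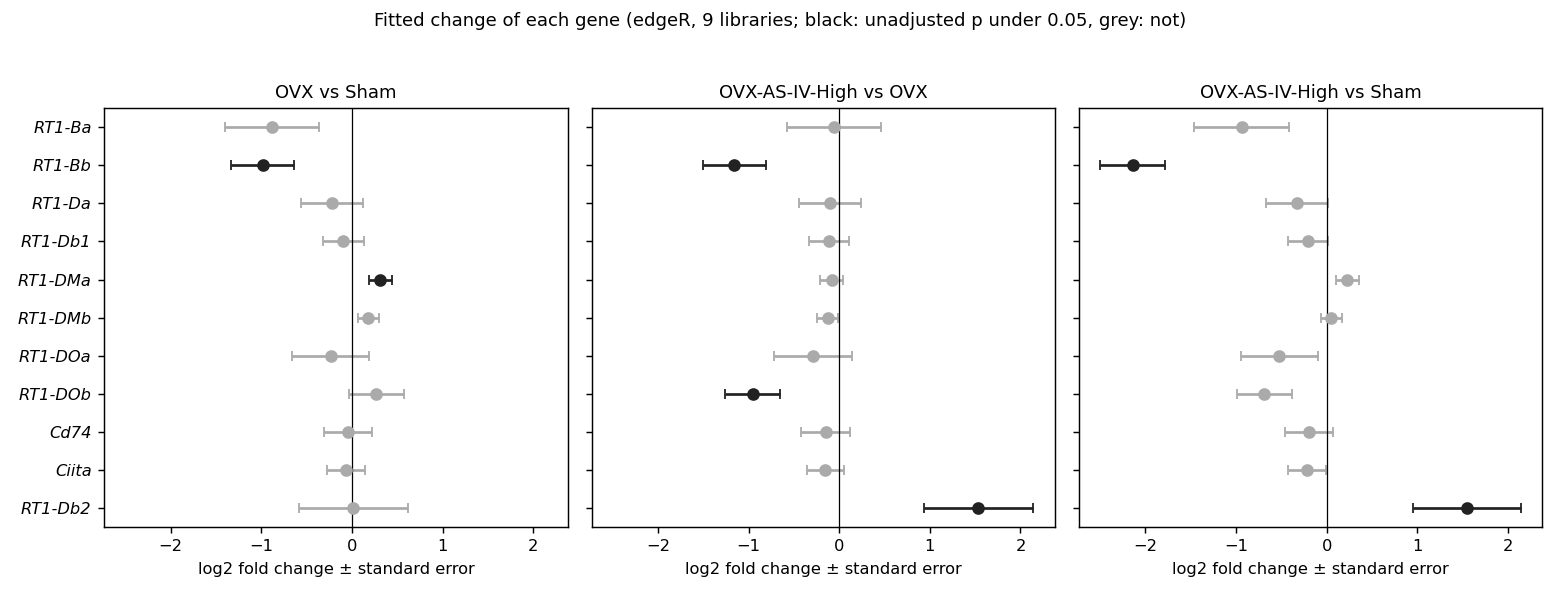
Log2FC ± SE (x axis) from edgeR for the 10 class II genes and for RT1-Db2 in the 3 comparisons (panels); black points had an unadjusted p under 0.05 and grey points did not. RT1-Bb lies left of 0 in all panels at -0.98, -1.16 and -2.14, and RT1-Db2 lies right of 0 in the panels with OVX-AS-IV-High, at 1.53 and 1.55.

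OVX-AS-IV-High vs. Sham compares the treated rats with rats that kept their ovaries. RT1-Bb showed the widest gap of the set, with a mean of 10.3 ± 0.847 FPKM (SD, n = 3) after AS-IV and 45.6 ± 13.1 FPKM in Sham. Its log2FC was -2.14 ± 0.359 (SE), with adjusted p = 0.0817 in edgeR's test, which is above the threshold of 0.05. Every treated library was below every Sham library, as for 10.3% of all genes. The DESeq2 adjusted p was 3.53e-07, and over all alternatives the adjusted p ran from that value to 0.319. The log2FC lay between -2.33 and -1.91 when any one library was left out.

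Of the 10 genes, 1 (RT1-Bb) had an unadjusted p under 0.05 and a lower level, where 8.48% of all genes did. It was also the only DEG of the 10 at either bound, against 3.15% of all genes at 1 and 6.92% at 0.58. RT1-DOb had a log2FC of -0.69 ± 0.306 (SE) and RT1-Ba one of -0.94 ± 0.521, with an unadjusted p above 0.05 that was under 0.05 for both without Sham replicate 1. RT1-DMa was higher in every treated library than in any Sham library, as were 9.61% of all genes, with a log2FC of 0.23 ± 0.127 and an unadjusted p above 0.05. Of the 10 log2FC values 8 were below 0, as were 51.6% over all genes, and their median was -0.27, beside -0.01 over all genes tested.

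Because a class II molecule needs both of its chains, the ratio of the paired chains was taken within each library from FPKM. These ratios carry the limit on alleles given above. The ratio of RT1-Bb to RT1-Ba was 3.92, 1.98 and 1.91 in Sham libraries, 3.0, 2.34 and 1.22 in OVX libraries, and 1.53, 0.899 and 0.752 in treated libraries. In Sham, RT1-Bb was thus the more abundant chain in every library, and after AS-IV it was the less abundant in 2 of 3. The treated libraries lay below every Sham library (exact permutation p = 0.1, two-sided, the smallest possible) and overlapped with OVX (p = 0.2). The same test was run on 8 ratios in 3 comparisons, and no p below 0.1 is possible in any of these 24 tests.

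The ratios of the other pairs overlapped between groups. RT1-Da to RT1-Db1 was 3.02 ± 0.817 (SD, n = 3) for Sham, 2.79 ± 0.176 for OVX and 2.81 ± 0.518 for OVX-AS-IV-High. RT1-DMb to RT1-DMa was 1.58 ± 0.312, 1.45 ± 0.186 and 1.4 ± 0.158, in the same order. RT1-DOb to RT1-DOa was 1.13 ± 0.507, 2.07 ± 1.37 and 1.02 ± 0.173, with OVX replicate 1 at 3.6 as the high library.

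Across the modules, RT1-DMb over RT1-DOb, the beta chain of the exchanger over that of its inhibitor, was 6.79, 8.29 and 11.5 in OVX libraries and 13.5, 17.3 and 15.4 in treated libraries. The groups did not overlap (exact permutation p = 0.1, the smallest possible). Sham stood at 13.9, 8.27 and 7.77 and overlapped both. In OVX-AS-IV-High vs. OVX, RT1-DOb had a log2FC of -0.96 and RT1-DMb one of -0.13, so this ratio mostly repeats the RT1-DOb result. The ratio of the alpha chains was not taken, and RT1-DMa and RT1-DOa each overlapped between these groups. Cd74 over RT1-Da, the chaperone chain over a chain that it guards, ran from 3.12 to 4.31 over all 9 libraries and overlapped between groups.

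**Figure D4:**
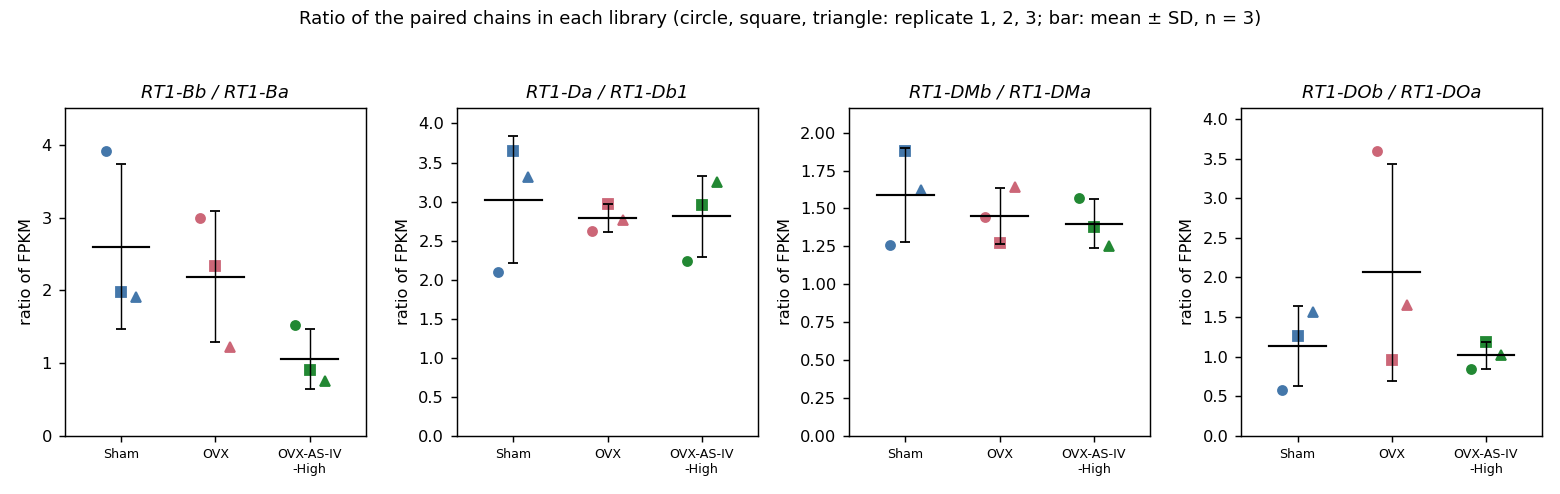
Ratio of the FPKM of paired chains (y axis, linear from 0) in each library of Sham, OVX and OVX-AS-IV-High; circle, square and triangle are replicates 1, 2 and 3, and the bar is the mean ± SD of 3 libraries. RT1-Bb over RT1-Ba is 1.91 to 3.92 in Sham and 0.752 to 1.53 in OVX-AS-IV-High, and the other ratios overlap between groups.

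RT1-Db2, a second beta gene of the D locus outside the 10, went the other way from RT1-Bb. Its counts read 40, 39 and 70 for Sham libraries, 14, 74 and 71 for OVX libraries and 74, 159 and 219 for treated libraries. In CPM every treated library was above every OVX library, as for 6.38% of all genes. Every treated library was also above every Sham library, as for 9.61% of all genes, though only narrowly for replicate 1 (2.04 CPM, beside 1.97 CPM in Sham replicate 3). The log2FC was 1.53 ± 0.599 (SE, adjusted p = 0.724 in edgeR's test) against OVX and 1.55 ± 0.6 (SE, adjusted p = 0.233 in edgeR's test) against Sham, with an unadjusted p under 0.05 in both. The unadjusted p lay above 0.05 without treated replicate 2 or treated replicate 3 in both, without OVX replicate 1 against OVX, and without Sham replicate 1 or Sham replicate 2 against Sham.

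RT1-Db1 over RT1-Db2 in FPKM was 41.3, 41.0 and 36.8 in Sham libraries, 98.1, 30.2 and 30.2 in OVX libraries and 22.6, 9.93 and 8.98 in treated libraries. The treated libraries lay below all others (exact permutation p = 0.1 in each comparison). Both genes code for beta chains of the same locus and may share reads, and how such reads were divided is not stated, so the level of RT1-Db2 is uncertain. RT1-Ha, another class II locus, had 1 to 30 counts per library and overlapped between groups.

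Over the 9 libraries, some members moved together more closely than others, which is given as a description over libraries that share depth, tissue makeup and group. With the mean profile of the other chains among RT1-Ba, RT1-Bb, RT1-Da and RT1-Db1 plus Cd74, the Pearson r of log2 CPM was 0.893 for RT1-Ba, 0.86 for RT1-Da, 0.827 for Cd74, 0.782 for RT1-Db1 and 0.58 for RT1-Bb. Ciita had an r of 0.885 with that profile, although its own level was the lowest of the set. RT1-DMa stood apart at -0.0386, and RT1-DMb, RT1-DOb and RT1-DOa lay at 0.359, 0.499 and 0.523. The closest single pairs were RT1-Da with Cd74 (0.959) and RT1-Da with RT1-Ba (0.937), while RT1-Bb with RT1-Da gave 0.491.

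The shared profile, in mean centred log2 CPM, was -0.238, 0.435 and 0.932 for Sham libraries, -0.559, 0.419 and -0.0176 for OVX libraries and -0.584, -0.374 and -0.0129 for treated libraries. Replicate 1 was the lowest library of each group, and the spread within Sham was wider than any difference between group means. Of the genes outside the set, the 10 most like this profile were Rnase11 (r = 0.947, at most 0.902 CPM), Hdlbp (0.933), Glul (0.929), C1qb (0.922), Wdr81 (0.922), Tnfrsf11a (0.917), Stra6l (0.916), Tgfbr3 (0.912), Slco2a1 (0.911) and Trim9 (0.906, at most 0.528 CPM). C1qb is a complement gene known from macrophages, and Tnfrsf11a encodes RANK, the receptor of the osteoclast lineage. C1qb ran from 71.4 to 131 CPM and Tnfrsf11a from 5.53 to 14.9 CPM. The choice from 16874 genes over 9 libraries makes high r values likely in any case.

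Class II genes are switched on by interferon-gamma through JAK-STAT signalling and Ciita, their products are loaded in the lysosome with the help of cathepsins, and the ligase MARCH1 removes them from the surface. The list for these steps also held 2 other class II loci, co-stimulatory genes, Cd4 and Lag3, which bind class II on T cells, and the ligands and co-receptor of Cd74. Of its 39 genes 38 were in the table and 37 were tested. In OVX vs. Sham, 4 were higher and 0 lower with an unadjusted p under 0.05, where 8.16% and 8.28% of all genes were, and 0 had an adjusted p under 0.05. The 4 were Marchf1 (log2FC 0.52 ± 0.115 SE), Ifi30, a lysosomal thiol reductase (0.47 ± 0.134), Jak1 (0.41 ± 0.104) and Ifngr2, a chain of the interferon-gamma receptor (0.30 ± 0.0883). By DESeq2, Marchf1, Ifi30 and Jak1 had an adjusted p under 0.05, where 4.85% of all genes did. In each of the 4, every OVX library was above every Sham library, as for 12.7% of all genes. Ifng itself had 0 to 4 counts per library and was not tested.

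In OVX-AS-IV-High vs. OVX, 5 of the 37 were higher, where 4.42% of all genes were, and 1 was lower, where 2.03% were. The higher ones were RT1-Db2, Creb1 (log2FC 0.32), Marchf1 (0.26), Ep300 (0.24) and Cd44, the co-receptor of Cd74 (0.22). Creb1 and Ep300 encode a factor and a coactivator that work at class II promoters, while the 3 RFX and 3 NF-Y subunits had log2FC values from -0.14 to 0.08 with an unadjusted p above 0.05. Cd40, a receptor that licenses antigen-presenting cells, was lower by a log2FC of -0.50 ± 0.175 (SE), with 11.9, 9.5 and 12.4 CPM beside 16.5, 18.1 and 13.0 CPM in OVX libraries. The unadjusted p of each of these 6 genes lay above 0.05 without at least 1 single library, and that of Cd44 also with the replicate number as a block. The count of higher genes was 0 without OVX replicate 1, 1 without OVX replicate 2, treated replicate 1 or treated replicate 2, and 3 without Sham replicate 2 or OVX replicate 3. The count of lower genes was 0 without OVX replicate 2 or treated replicate 2, and 2 without OVX replicate 3 or treated replicate 1. Apart from RT1-Db2 these differences were modest, and the adjusted p of each was above 0.05 by edgeR and by DESeq2.

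Marchf1 was the pathway gene with the clearest order between groups. It stood at 30.9, 34.9 and 33.4 CPM in Sham libraries, at 46.4, 48.2 and 47.3 CPM in OVX libraries and at 59.9, 63.1 and 47.2 CPM in treated libraries. Sham lay below both other groups without overlap, as for 12.7% of all genes beside OVX and 9.61% beside OVX-AS-IV-High. Treated replicate 3 lay inside the OVX range. Against Sham, the treated group had a log2FC of 0.78 ± 0.115 (SE), with adjusted p = 0.0639 in edgeR's test, the smallest of any gene in that comparison, and adjusted p = 9.13e-06 by DESeq2. In OVX-AS-IV-High vs. Sham, 6 of the 37 genes were higher, where 9.17% of all genes were, and 1 (Mif, a ligand of Cd74, log2FC -0.23) was lower, where 8.48% were.

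The cells that carry class II were read from their markers. In OVX vs. Sham the 8 B cell markers reported here were higher with an unadjusted p under 0.05, where 8.16% of all genes were, and without overlap, as for 12.7% of all genes. Their median log2FC was 0.72, beside -0.01 over all genes. The adjusted p of each was above 0.05 in edgeR's test, whereas DESeq2 put 6 of the 8 under 0.05, all but Pax5 and Fcer2, beside 4.85% of all genes. Cd79a, a chain of the B cell receptor, stood at 236, 236 and 332 CPM in Sham libraries, at 432, 456 and 446 CPM in OVX libraries and at 283, 322 and 425 CPM in treated libraries, with a log2FC of 0.73 ± 0.177 (SE, adjusted p = 0.149 in edgeR's test) in OVX vs. Sham. Cd79b, the other signalling chain of that receptor, had a log2FC of 0.68. The summed B cell level was 671.0 to 977.4 CPM for Sham, 1271 to 1359 CPM for OVX and 833.8 to 1220.0 CPM for OVX-AS-IV-High. The count of 8 was at least 7 when any one library was left out.

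The ratio of Cd74 to Cd79a in FPKM was 1.13, 1.57 and 1.66 in Sham libraries and 0.681, 1.03 and 0.883 in OVX libraries, without overlap (exact permutation p = 0.1, the smallest possible). In treated libraries it was 1.09, 0.967 and 0.995, also below every Sham library. This ratio was chosen after its values were seen, so its p adds no support. In OVX vs. Sham, Cd74 itself had a log2FC of -0.04 ± 0.266 (SE) and Cd79a one of 0.73 ± 0.177, so the lower ratio went with a higher Cd79a. In OVX-AS-IV-High vs. OVX, 3 of the 8 B cell markers were lower with an unadjusted p under 0.05 (Pax5, Ms4a1 and Cd79b, log2FC -0.40, -0.53 and -0.34), where 2.03% of all genes were, a count that was 5 with the replicate number as a block and 5 without Sham replicate 3, and 1 without OVX replicate 1, OVX replicate 2, treated replicate 1 or treated replicate 2. RT1-DOb, whose product is known from B cells, was lower in the same comparison at -0.96; the part of B cells in that was not tested.

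Macrophage markers gave 0 of 11 with an unadjusted p under 0.05 in OVX vs. Sham and 1 of 11, lower, in OVX-AS-IV-High vs. OVX, where 2.03% of all genes were lower. Their summed level was 577.7 to 1087 CPM for Sham, 779.8 to 894.7 CPM for OVX and 670.2 to 817.3 CPM for OVX-AS-IV-High, and Csf1r, Cd68 and Adgre1 overlapped between all groups. Against OVX, 3 of the 11 (Cd163, C1qb and C1qc) were lower in treated libraries without overlap, as for 6.36% of all genes. Dendritic cell markers were mixed in OVX vs. Sham, with 4 of 10 higher and 1 lower, beside 8.16% and 8.28% of all genes: Flt3 was at 0.44 and Itgax at -0.35, while Zbtb46 overlapped. The conventional dendritic cell markers Xcr1 and Clec9a were near the limit of detection, with 0 to 14 and 12 to 28 counts per library. Over the 9 libraries, the class II profile had an r of 0.698 with the macrophage list, 0.34 with the dendritic cell list, -0.0802 with the B cell list and -0.726 with the neutrophil list, given as a description without a test. The leukocyte gene Ptprc stood at 231 to 295 CPM for Sham, 291 to 320 CPM for OVX and 310 to 579 CPM for OVX-AS-IV-High. The OVX and treated groups overlapped, with a log2FC of 0.46 ± 0.206 (SE), and the 579 CPM was treated replicate 1. The part of leukocyte number in the level of any class II gene was not tested.

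**Figure D5:**
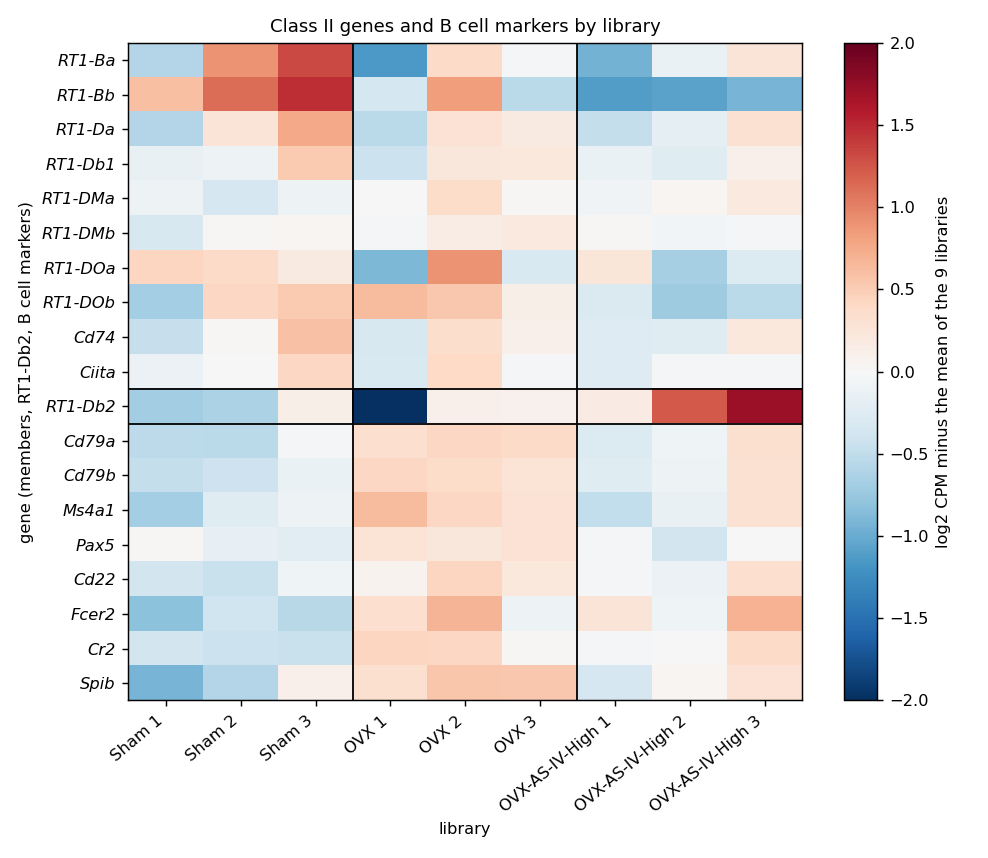
Log2 CPM minus the mean of the 9 libraries (colour, from -2 to 2) for the 10 class II genes, RT1-Db2 and 8 B cell markers (y axis) in each library (x axis). RT1-Bb is between -1.12 and -0.927 in the 3 OVX-AS-IV-High libraries, RT1-Db2 reaches 1.71 there and lies at -2.09, past the end of the scale, in OVX replicate 1, and B cell markers are mostly lower in Sham than in OVX.

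The genes around RT1-Bb were set beside it. In the RefSeq order, the stretch from RT1-Da to RT1-Ha on chromosome 20 holds 17 genes, of which 16 were tested and 8 are not members; these neighbours were chosen after the values of the members were seen. Psmb8 and Psmb9, immunoproteasome subunits that serve class I, were higher in OVX than in Sham, with log2FC values of 0.55 ± 0.123 (SE, adjusted p = 0.140 in edgeR's test) and 0.39 ± 0.0819 (SE, adjusted p = 0.138 in edgeR's test). After AS-IV, Psmb9 was lower relative to OVX, with a log2FC of -0.23 and an unadjusted p under 0.05. Tap1 and Tap2, the peptide transporter of class I, had an unadjusted p above 0.05 in all comparisons. RT1-DOb, next in order to RT1-Bb, and RT1-Ba on its other side had log2FC values of -0.69 and -0.94 in OVX-AS-IV-High vs. Sham, beside -2.14 for RT1-Bb.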

How the data were processed

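RNA from bone of 9 rats was sequenced from poly(A)-selected libraries made to keep strand, per the labels. The authors filtered the reads, mapped them by Tophat and Bowtie2, and counted genes by eXpress. The submitters' processing notes name build mRatBN7.2. The deposited counts are whole numbers of reads for each gene, without normalization, and the deposited FPKM values relate them to transcript length and library size. How reads shared by near-identical genes were divided is not given in the sources used here.

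In R 4.3.3, edgeR 4.0.16 was fitted once to the 9 libraries (quasi-likelihood F-test, TMM factors), after filterByExpr had removed genes at its default minimum of 10 counts. Adjusted p-values are Benjamini-Hochberg values over the 16874 genes tested. CPM values are TMM-scaled, and log2 CPM used a prior count of 2. Ratios were tested with exact permutation tests (two-sided) on log2 ratios of FPKM. DESeq2 1.42.0 and limma 3.58.1 served for alternatives. The fits were tested on simulated data. Promoters were searched in Python 3.11.15, and plots were drawn with matplotlib 3.10.9. All 10 members were named, with pathway genes that had an unadjusted p under 0.05 in either comparison with OVX, the leading cell markers and the 10 genes closest in pattern. One B cell marker of the list is not reported here, for a reason unrelated to its values. The members and lists were chosen with earlier results of these data known. Replicate numbers were checked from the correlation of deviations from group means. Between OVX-AS-IV-High and OVX it was 0.31, 0.158 and 0.13 for equal numbers. For unequal numbers it ran from -0.283 to 0.178, the highest for treated replicate 3 with OVX replicate 2. For Sham, 1 of the 3 values for equal numbers was negative with either group. Neither the labels nor the study's methods pair the rats, so the replicate block served only as an alternative.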

Additional observations from a re-analysis of the deposited data

How the results depend on the processing

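Of 510 recomputed log2FC values of the 10 genes, 484 kept their direction and side of the threshold, 2 newly passed the threshold and 24 had the opposite direction. The 2 are RT1-Bb in OVX-AS-IV-High vs. Sham by DESeq2 (adjusted p = 3.53e-07) and with the replicate number as a block (log2FC -2.11, adjusted p = 0.0493), which take the count of members with an adjusted p under 0.05 from 0 to 1. In that comparison, 6% of all genes had an adjusted p under 0.05 by DESeq2 and 0.344% with the block. The block changed no other call of a member in that comparison at the adjusted level, and no label pairs the rats by replicate number. The number of members with an unadjusted p under 0.05 there was 2 by DESeq2, without the filter on low counts and with the block. Over all genes it was 3324 of 22999, 3178 of 23026 and 3705 of 16874, in the same order. In OVX vs. Sham, 1 gene was a DEG with the block and with limma on log2(FPKM + 1) and log2(FPKM + 0.1), where 0 were. In OVX-AS-IV-High vs. OVX, 0 members were DEGs with limma on log2(FPKM + 1), against 13 of 16874 genes. Without single libraries, the number of DEGs among the members ran from 0 to 2 for OVX vs. Sham, 0 to 2 for treated vs. OVX and 1 to 2 for treated vs. Sham, and the number with an unadjusted p under 0.05 from 1 to 3, 2 to 2 and 1 to 3. The high counts of both comparisons with Sham came without Sham replicate 1. Over all genes, of which 17122 to 17193 were then tested, DEGs numbered 387 to 1064, 141 to 219 and 409 to 940, in the same order. Those with an unadjusted p under 0.05 numbered 1763 to 4332, 679 to 1429 and 1925 to 3995. At an absolute log2FC bound of 0.58, added after seeing the data, 1 member was a DEG in OVX vs. Sham and 2 in treated vs. OVX, against 6.96% and 2.19% of all genes. Among the 37 pathway genes, counted at an unadjusted p under 0.05, OVX vs. Sham gave 7 higher with the block, and 4 to 9 higher (9 without Sham replicate 3) and 0 to 1 lower (1 without Sham replicate 1) without single libraries. Treated vs. OVX gave 2 lower by DESeq2, 2 and 1 higher with limma (pseudocounts 1 and 0.1), and 0 to 6 higher and 0 to 2 lower without single libraries. Treated vs. Sham gave 0 lower with only the compared groups fitted, and 4 to 10 higher (10 without Sham replicate 3) and 0 to 2 lower (0 without treated replicate 2, 2 without OVX replicate 2 or treated replicate 1). Marchf1 had adjusted p = 0.0458 with the block and adjusted p = 0.0215 without treated replicate 3 in that comparison. The cause of these changes was not tested.

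All opposite directions were of log2FC values at or below 0.328 in size. In OVX vs. Sham, Cd74 was at 0.00123 with the block and at 0.0232 and 0.0234 with limma (pseudocounts 1 and 0.1). Leaving out single libraries gave, in OVX vs. Sham, -0.51 to 0.12 for RT1-Da, -0.22 to 0.16 for RT1-Db1, -0.91 to 0.0929 for RT1-DOa, -0.0301 to 0.48 for RT1-DOb, -0.26 to 0.27 for Cd74 and -0.28 to 0.11 for Ciita; the sign turned without Sham replicate 1 (RT1-DOb), Sham replicate 3 (RT1-Da, RT1-Db1, Cd74, Ciita) or OVX replicate 1 (RT1-Db1, RT1-DOa, Cd74, Ciita). In OVX-AS-IV-High vs. OVX it gave -0.38 to 0.30 for RT1-Ba, -0.34 to 0.0556 for RT1-Da, -0.15 to 0.0441 for RT1-DMa, -0.61 to 0.39 for RT1-DOa, -0.32 to 0.0117 for Cd74 and -0.30 to 0.0639 for Ciita, above 0 without OVX replicate 2 in each and without treated replicate 1 for RT1-Ba and RT1-Da. In OVX-AS-IV-High vs. Sham it gave -0.61 to 0.0190 for RT1-Da, -0.32 to 0.0454 for RT1-Db1 and -0.40 to 0.12 for Cd74, above 0 without Sham replicate 3, and -0.0500 to 0.12 for RT1-DMb, below 0 without Sham replicate 1. With 3 libraries a group, the spread between rats, against which the p-values weigh each difference, is poorly known. RT1-DOa, RT1-DOb and Ciita rest on 97 to 675 counts per library.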

Other observations

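Beside the class II set, Ccr7, the receptor that guides mature dendritic cells and lymphocytes to lymph nodes, was low in Sham at 0.275, 0.704 and 0.564 CPM and stood at 0.981, 2.69 and 0.814 CPM in OVX and at 0.936, 1.68 and 1.68 CPM in OVX-AS-IV-High. Every library of both ovariectomized groups was above every Sham library, with log2FC values of 1.54 ± 0.558 (SE, adjusted p = 0.228 in edgeR's test) and 1.47 ± 0.558 (SE, adjusted p = 0.224) against Sham. Siglech, a plasmacytoid dendritic cell marker, had 2.2, 1.73 and 2.25 CPM in Sham libraries, 2.45, 4.19 and 4.96 CPM in OVX libraries and 3.72, 5.82 and 3.74 CPM in treated libraries, with log2FC values of 0.91 ± 0.315 (SE) and 1.1 ± 0.315 (SE) against Sham and an unadjusted p under 0.05 in both. Both genes were named after their values were seen.

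The adipocyte markers gave 5 of 5 higher in OVX than in Sham with an unadjusted p under 0.05, where 8.16% of all genes were higher. All 5 were without overlap, as for 12.7% of all genes, and their median log2FC was 1.34. Of 5 pre-B cell markers 4 were higher (median log2FC 0.96), of 7 erythroid markers 2 were lower (-0.28), of 7 neutrophil markers 2 were higher (0.11), of 6 T and NK cell markers 2 were higher (0.60), of 8 osteoblast and osteocyte markers 1 was higher (0.38), and of 6 plasma cell markers 0 passed (0.23). Of all genes, 8.28% were lower in this comparison. Between treated and OVX libraries, the counts with an unadjusted p under 0.05 were 0 for adipocyte, erythroid, neutrophil, osteoblast and osteocyte, plasma cell and T and NK cell markers, and 1 (lower) for pre-B cell markers. Of all genes, 4.42% were higher and 2.03% lower there, so lists this short say little. The adjusted p of each of these markers was above 0.05 in edgeR's test, whereas by DESeq2 4 of the 5 adipocyte markers (Adipoq, Cidec, Lep and Plin1), 2 neutrophil markers (Elane and Mpo) and 1 marker each of the pre-B cell (Ebf1), T and NK cell (Nkg7) and osteoblast lists (Bglap) were under 0.05 in OVX vs. Sham. By the same test 4.85% of all genes were.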
